A study of Arabidopsis thaliana with 2 samples.

Results

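The cytochrome b6f complex sits in the thylakoid membrane between the photosystems, where it oxidises plastoquinol, reduces plastocyanin and moves protons into the lumen. Its subunits are divided between the plastid and the nuclear genome, and the cytochrome f subunit becomes functional only after heme is attached to it in the lumen. The 6 plastid-encoded genes described here were chosen by annotation. They are petA, petB, petD and petL of the complex itself, ccsA, whose product takes part in heme attachment to cytochrome f, and cemA, which codes for a protein of the inner envelope. cemA is therefore neither a b6f subunit nor a cytochrome assembly gene. Each gene had 1 probe set of its own, so the genes rest on 6 of the 22746 probe sets that are not manufacturer's controls, and all 6 passed the signal filter.

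RNA came from axillary buds of 2 Arabidopsis thaliana lines, both obtained by ethyl methanesulfonate mutagenesis in the Col-0 background, with 1 array per line. In axr1-12 the mutated gene is AXR1, which acts in the RUB conjugation step of auxin signalling and has lost function. In axr3-1 it is AXR3 (IAA17), an auxin-labile repressor of transcription whose mutant form is gain-of-function. Buds of both lines had elongated to about 2 mm, on plants grown at 21 °C on compost with light for 16 h and darkness for 8 h, following 3 days in the cold and on soil that had been treated with Intercept WG. The series title sets dormant against active axillary meristems, and the labels do not state which line stands for which state. Because there was 1 array per line, no difference below has a replicate check, and no p-value is given.

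The signal of all 6 genes was lower in axr1-12 buds than in those of axr3-1, by 1.56-fold to 1.95-fold. The median log2 difference, axr1-12 minus axr3-1, was -0.69, or 1.61-fold, against 0.00 over the 11373 probe sets that passed the filter. All 6 were at least 1.5-fold lower in axr1-12, where 11.5% of all probe sets past the filter were, and 0 of 6 were at least 2-fold lower, where 3.28% of all probe sets were. The share at least 1.5-fold lower was larger among bright probe sets, as given further on, and the count of 6 became 2 under scalings that follow the signal. With the hybridisation spikes, described further on, set equal between the arrays, the count became 0 and the median -0.06. None of the 6 was at least 1.5-fold or 2-fold higher in axr1-12, which 9.93% and 3.10% of all probe sets were. Signals are the deposited MAS5 units, and log2 differences were taken after the arrays were brought to a common median ratio, which moved them by 0.021. How much of the difference lies between the arrays and not in the bud RNA was not tested. Nor can less plastid RNA per cell and fewer cells with developed chloroplasts be told apart in such whole-bud samples.

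Of the subunit genes, petA codes for cytochrome f, which passes electrons to plastocyanin. Its signal was 1026 units in axr1-12 and 1975 units in axr3-1 buds, a log2 difference of -0.97 and the lowest of the 6 with the median ratio. After the quantile and loess scalings given further on petD was the lowest, at -0.77 and -0.73, beside -0.70 for petA under both. Its rank from the brightest probe set was 378 in axr1-12 and 184 in axr3-1.

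petB codes for cytochrome b6, which carries the hemes of the membrane-embedded part of the complex. It gave 4240 units in axr1-12 and 6505 units in axr3-1, a log2 difference of -0.64 or 1.56-fold lower. It was the 13th brightest probe set on both arrays, so in rank order its place was the same although its signal differed.

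petD codes for subunit IV, the partner of cytochrome b6. Its probe set was dim, at 44.4 units in axr1-12 and 74.4 units in axr3-1, and the difference was -0.77 or 1.70-fold lower in axr1-12. The highest of 27 bacterial control probe sets without target gave 29.4 units, so petD lay above that level on both arrays but closer to it than the other members did.

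petL codes for a small subunit at the periphery of the complex. It had 572 units in axr1-12 and 889 units in axr3-1, a difference of -0.66 or 1.58-fold lower. The 4 subunit genes thus ranged from -0.97 to -0.64.

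The genes outside the complex lay within that range. ccsA had 1567 units in axr1-12 and 2516 units in axr3-1, a difference of -0.70 or 1.63-fold lower. cemA, whose product is linked to proton exchange across the envelope in the alga Chlamydomonas, had 732 units in axr1-12 and 1150 units in axr3-1, a difference of -0.67 or 1.59-fold lower.

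**Figure D1:**
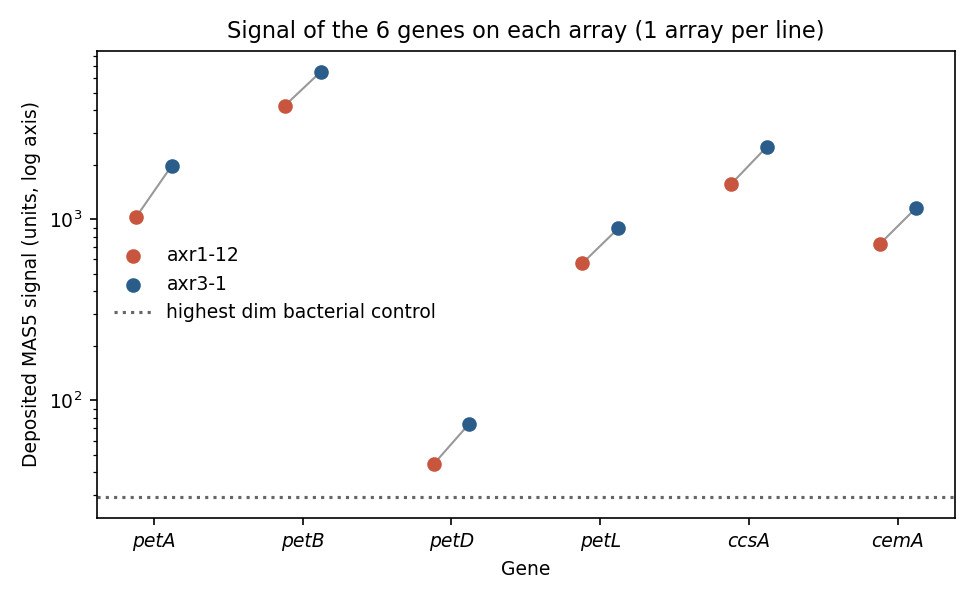
Deposited MAS5 signal (log axis) of the 6 genes, with axr1-12 left of axr3-1 for each gene and 1 point per array. In each pair the axr1-12 point is lower, and petD at 44.4 and 74.4 units lies nearest to the dotted line at 29.4 units, the highest bacterial control without target.

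The remaining plastid-encoded b6f genes, petG and petN, code for small subunits on which the stability of the complex depends, and neither passed the filter. petG gave 11.4 units in axr1-12 and 30.1 units in axr3-1. petN gave 8.54 units in axr1-12 and 82.2 units in axr3-1. Both lay below 29.4 units in axr1-12, so no fold is given, and petN alone of the pair was clearly above that level in axr3-1.

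Signals of the other plastid-encoded genes were also lower in axr1-12. The 56 other plastid-encoded genes past the filter, of 63 such genes with a probe set of their own, had a median log2 difference of -1.01, and their middle 50% ran from -1.36 to -0.64. All 56 were lower in axr1-12, and 52 were after quantile scaling, 53 after loess scaling and 43, with a median of -0.39, when the hybridisation spikes were set equal. Of the 56, 80.4% were at least 1.5-fold lower and 50.0% at least 2-fold lower in axr1-12. The 6 genes spanned 0.33 log2 units with an SD of 0.12 over genes, against 2.17 and 0.54 for the other plastid genes. The span of the 6 was wider after quantile scaling, at 0.77, and after loess scaling, at 0.64, where the other plastid genes spanned 2.27 and 2.22. Spans over 6 and over 56 genes are not like measures, because a span widens with the number of genes. Relative to the median of the other plastid genes petA was 0.05 higher, petD 0.25, ccsA 0.31, cemA 0.34, petL 0.36 and petB 0.38 higher on the log2 scale. The gap between the medians was 0.33, and 0.28 after quantile and 0.26 after loess scaling. The gaps of single genes changed more. After quantile scaling the other plastid genes had a median of -0.77, beside -0.77 for petD and 0.00 for petB. After loess scaling that median was -0.78, beside -0.73 for petD and -0.10 for petB. These gaps were not tested. The log2 differences of 2 probe sets of 1 gene disagreed by 0.37 (root mean square over 32 genes), a value that covers probes on these arrays and says nothing of plants or hybridisations.

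By closeness of the log2 difference to the median of the 6, the nearest other plastid genes were psaI, a photosystem I subunit gene, at -0.69, psbL, a photosystem II subunit gene, at -0.70, and rps18, a ribosomal protein gene, at -0.72. With 1 value per line such a likeness is no more than a similar difference between these arrays.

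Plastid genes are transcribed in clusters whose long precursors are cut into shorter RNAs, and the 6 genes lie in 4 such clusters. The gene order below is that of the TAIR10.1 plastid genome. petB and petD close the psbB cluster, which begins with psbB and psbT for photosystem II and goes on to psbH. The difference was not even along this cluster. psbB was 3.54-fold lower in axr1-12, at 167 units in axr1-12 and 582 units in axr3-1, and psbT was 2.68-fold lower, at 112 units in axr1-12 and 296 units in axr3-1. psbH, at 1218 units in axr1-12 and 1874 units in axr3-1, had the same difference as petB, -0.64. The first 2 genes of the cluster therefore differed by -1.83 and -1.42, and the last 3, psbH, petB and petD, by -0.64 to -0.77. psbN, which lies between psbT and psbH and is read from the opposite strand, had -2.07. After loess scaling psbB had -1.82 and psbT -1.45, whereas psbH had -0.37, petB -0.10 and petD -0.73. With the hybridisation spikes, described further on, set equal between the arrays, psbB had -1.20 and psbT -0.79, whereas psbH had -0.02, petB -0.01 and petD -0.14. The first genes of the cluster thus differed more than the last under each of these scalings.

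cemA and petA close a cluster with accD, which codes for a subunit of the acetyl-CoA carboxylase of fatty acid synthesis, psaI, and ycf4, a photosystem I assembly factor gene. Along it the log2 differences were -1.06 for accD, -0.69 for psaI, -1.28 for ycf4, -0.67 for cemA and -0.97 for petA. Neighbours thus alternated between larger and smaller differences, and cemA was 0.61 higher than ycf4 directly before it. psbJ, a photosystem II gene next to petA in the plastid gene order, was not listed as a gene of this cluster. It had 719 units in axr1-12 and 826 units in axr3-1, a difference of -0.22, which is 0.75 above that of petA.

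The cluster that opens with petL had a narrow span with the median ratio. psaJ of photosystem I had -0.43, rpl33 -0.48 and rps18 -0.72, beside -0.66 for petL, a span of 0.28 over the 4 genes past the filter. The span was 0.69 after quantile and 0.66 after loess scaling. Over rpl32, ccsA and ndhD the span was 0.53 and 0.51, although ndhD was not listed as a gene of the ccsA cluster. psaJ turned to 0.06 after quantile scaling, 0.02 after loess scaling and 0.19 with the spikes set equal, where rpl33 turned to 0.14, so these directions depended on the scaling.

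ccsA stands between rpl32, a ribosomal protein gene, and ndhD, a gene of the NDH complex that feeds electrons back to plastoquinone. ndhD was taken as the gene on the far side of ccsA and not as a gene of its cluster. rpl32 had -0.56, or 0.07 with the spikes set equal, ccsA -0.70 and ndhD -1.08. After quantile scaling rpl32 had -0.26, ccsA -0.37 and ndhD -0.79, and after loess scaling -0.30, -0.37 and -0.81. ndhD was 2.12-fold lower in axr1-12, at 1049 units in axr1-12 and 2193 units in axr3-1.

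**Figure D2:**
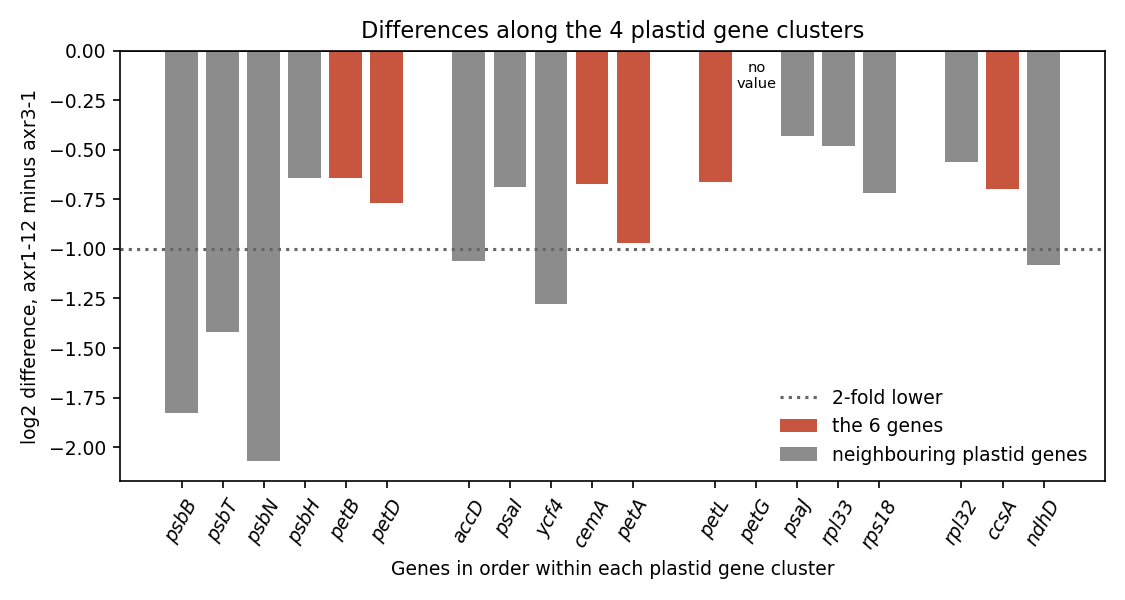
Log2 difference, axr1-12 minus axr3-1, for each gene in its order within the 4 plastid gene clusters, with the 6 genes in red, neighbours in grey and a dotted line at 2-fold lower. ndhD is drawn as the gene beside ccsA and not as part of its cluster. psbB, psbT and psbN lie below the dotted line while psbH, petB and petD lie between -0.64 and -0.77, and petG has no value.

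Nuclear genes that serve the complex were read from lists of 26 genes for its subunits, its partners in electron transport and its assembly. Of these, 8 had a probe set annotated to 1 gene and all 8 passed the filter. Among the 8, 7 had a lower and 1 a higher signal in axr1-12, 4 were at least 1.5-fold lower and 0 at least 2-fold lower, beside 11.5% and 3.28% of all probe sets past the filter, and their median log2 difference was -0.54. The median was -0.42 after quantile and after loess scaling. With the spikes set equal it turned to 0.09, and 3 of the 8 were lower in axr1-12. The gene of the Rieske protein, PETC, and those of plastocyanin were not analysed here.

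Among assembly genes, CCB3, needed to attach a heme to cytochrome b6, had 70.7 units in axr1-12 and 112 units in axr3-1, 1.60-fold lower. CcdA, which carries reducing power across the thylakoid membrane for the same heme attachment that ccsA serves, had 205 units in axr1-12 and 282 units in axr3-1, 1.40-fold lower. The loci AT1G49380 and AT5G42310, which have no symbol in the reference table, were 1.68-fold and 1.25-fold lower. Of 11 listed assembly genes, these 4 were the ones with a probe set annotated to 1 gene. All 4 were lower in axr1-12 with the median ratio, quantile and loess scaling. With the spikes set equal CcdA turned to 0.15 and AT5G42310 to 0.31, while CCB3 had -0.05 and AT1G49380 -0.12.

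The subunit list was represented by AT2G26500, which has no symbol in the reference table. It was bright, at 2235 units in axr1-12 and 3326 units in axr3-1, and 1.51-fold lower in axr1-12. After loess scaling its log2 difference of -0.59 became -0.19, and with the spikes set equal 0.03.

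The partner genes differed among themselves. TROL, which anchors ferredoxin-NADP reductase to the thylakoid, had 400 units in axr1-12 and 658 units in axr3-1, 1.67-fold lower. PGRL1B, of cyclic electron flow around photosystem I, had 166 units in axr1-12 and 171 units in axr3-1. CYTC6A, a lumenal c-type cytochrome, had 222 units in axr1-12 and 187 units in axr3-1, a log2 difference of 0.23. The differences of PGRL1B and CYTC6A were smaller than 0.37. With the spikes set equal TROL had -0.11 and CYTC6A 0.85, and PGRL1B turned to 0.56.

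Mitochondria attach heme to their cytochromes by a different machinery, part of which is encoded in the mitochondrial genome. Of 6 listed mitochondrial genes, 4 had a probe set annotated to 1 gene and 2 passed the filter. ccmFN1 had 307 units in axr1-12 and 338 units in axr3-1, a log2 difference of -0.16. ccmFC had 102 units in axr1-12 and 104 units in axr3-1, a difference of -0.05. With the spikes set equal they turned to 0.47 and 0.58. With the median ratio both were smaller than the difference of ccsA, a contrast that was not tested. ccmB, at 43.9 units in axr1-12 and 59.7 units in axr3-1, did not pass the filter. Its log2 difference was larger than those of ccmFN1 and ccmFC, at -0.47. ccmFN2 was below 29.4 units on both arrays.

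Other values of the arrays moved in the same direction as the 6 genes. All 18 spike probe sets, whose targets are added at hybridisation and do not come from the buds, were lower in axr1-12, by log2 differences from -0.84 to -0.26 with a median of -0.63. petA, at -0.97, was lower than all 18, while the other 5 genes lay within the range of the spikes. With the spikes set equal the median of the 6 genes was -0.06, and the values ran from -0.34 for petA to -0.01 for petB. On that scale 54.0% of all probe sets past the filter were at least 1.5-fold higher in axr1-12. The part of the spikes' difference in these results was not tested.

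Bright probe sets tended to be lower in axr1-12 as well. Probe sets other than those annotated to 1 plastid-encoded gene were binned by mean log2 signal. Those of several genes or without a listed gene stayed in, and plastid ones may be among them. In the bin from 11 upward, which is that of petB, 132 such probe sets had a median difference of -0.33, and 40.2% were at least 1.5-fold lower in axr1-12. The median was -0.17 over the 231 from 10 to 11, the range of petA and ccsA, where 29.0% were at least 1.5-fold lower. It was -0.07 over the 573 from 9 to 10, the range of petL and cemA, where 20.6% were. Below 8, the range of petD, the median was 0.02 over 8950 probe sets and 9.36% were. Scaling that follows the signal changed petB most. Its difference was -0.10 after loess and 0.00 after quantile scaling, the second because equal ranks receive equal values. petD had -0.73 and -0.77, petA -0.70 under both, cemA -0.50 and -0.48, petL -0.53 and -0.52, and ccsA -0.37 under both. Under each of these scalings 2 of 6 genes, petA and petD, were at least 1.5-fold lower in axr1-12.

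**Figure D3:**
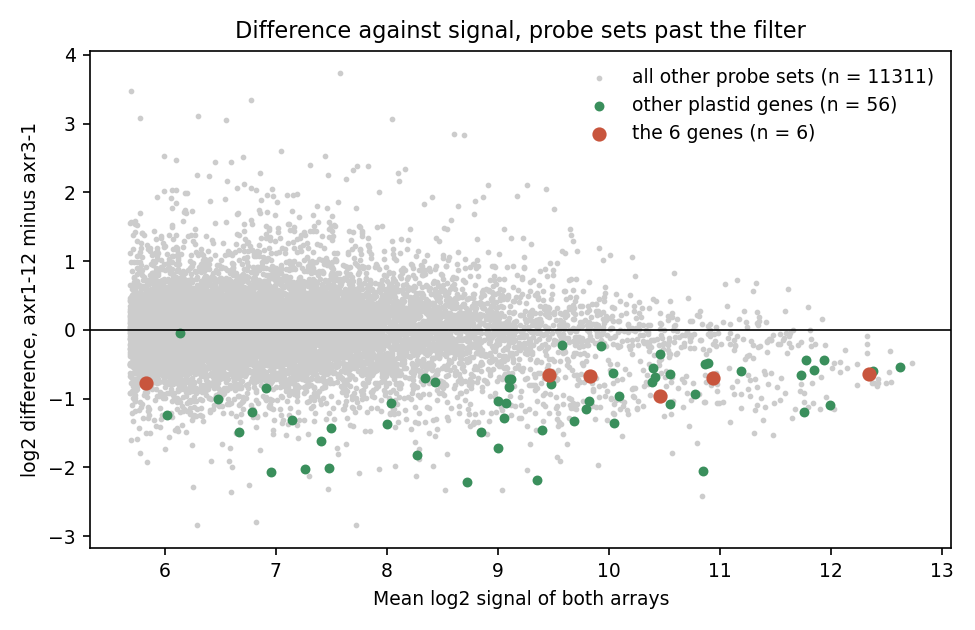
Log2 difference, axr1-12 minus axr3-1, against the mean log2 signal of both arrays for the 11373 probe sets past the filter, with the 6 genes in red and the other 56 plastid genes in green. The red points lie between -0.97 and -0.64, all above the median of the green points, -1.01, but petA by only 0.05. The grey cloud bends below 0 at its bright end.

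**Figure D4:**
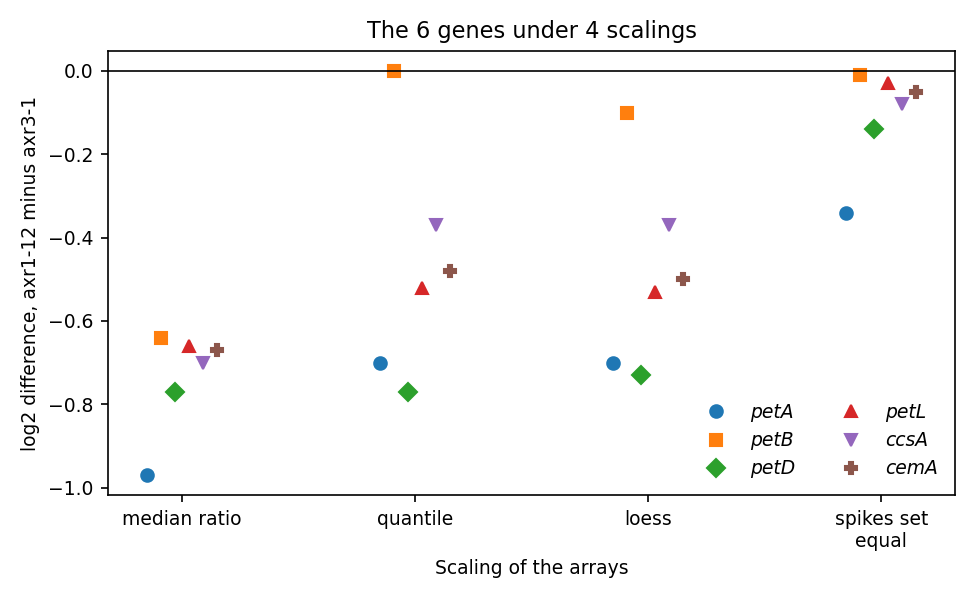
Log2 difference, axr1-12 minus axr3-1, of each of the 6 genes under 4 ways of scaling the arrays, 1 marker per gene. The median of the 6 is -0.69 with the median ratio, -0.50 with quantile, -0.52 with loess and -0.06 with the spikes set equal.

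The labels' primer carries oligo(dT), and most plastid RNA has no long poly(A) tail, so the plastid signals also depend on how much of that RNA was primed. The control for cytosolic 25S ribosomal RNA, which likewise has no long tail, gave 549 units in axr1-12 and 1101 units in axr3-1. Its part in the result was not tested. The 3′ over 5′ signal ratio, which reflects RNA integrity, was 1.75 in axr1-12 and 2.29 in axr3-1 for the second ubiquitin control, and 4.91 in axr1-12 and 4.30 in axr3-1 for the first actin control.

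Of 14 listed markers of buds and meristems, 2 had a probe set annotated to 1 gene. The annotation named no gene for 8730 probe sets, so the others may still be on the array. LAS, needed to form axillary meristems, had 61.8 units in axr1-12 and 69.8 units in axr3-1, a log2 difference of -0.20. CLV3, a stem cell signal, was below 29.4 units on both. The green leaf list of 6 was represented by RCA, the nuclear gene of Rubisco activase, at 2122 units in axr1-12 and 2441 units in axr3-1, a log2 difference of -0.22. PYK10, of roots, was below 29.4 units on both arrays. AMS, of anthers, had 66.5 units in axr1-12 and 46.8 units in axr3-1. Its log2 difference of 0.48 was the largest among these markers and opposite in direction to the 6 genes. IRX10, of secondary walls, had 90.1 units in axr1-12 and 105 units in axr3-1, a difference of -0.25. The part of tissue makeup in the differences of the 6 genes was not tested.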

How the data were processed

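Biotin-labelled cRNA of 1 bud RNA sample per line was hybridised to 1-colour arrays. The deposited files hold a linear intensity for each probe set, computed with MAS5 (no version given) per the submitters' processing notes. With 2% trimmed at either end, each array had a mean of 100, so scaling had been done. Control probe sets (64 of 22810) were left out of the comparison. The platform's GEO annotation, updated to TAIR10.1 symbols, gave 1 gene for 13513 probe sets, several for 503 and none for 8730. The median ratio of the arrays was set to 1, signals under the 25th percentile (15.3 units) were set to it, and probe sets with a mean log2 signal at or above the median were kept. The brightest probe set stood for its gene. Folds are not given at or below 29.4 units.

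The members, lists and thresholds of 1.5-fold and 2-fold were chosen with earlier results of these data known. Named genes were the members, petG and petN, the genes of their clusters with ndhD, all measured genes of the nuclear and mitochondrial lists, and the 3 plastid genes nearest in difference. psbJ was named after its value was seen. Marker genes were also listed. Alternatives were other scalings, floors, filters and choices of probe set (numpy 2.4.6, pandas 2.3.3, statsmodels 0.14.6, loess span 0.3). The procedure was tested on simulated data in which all probe sets of 1 array were shifted alike. Those data held no trend with signal and no separate offset of the spikes, so the test does not cover either. The number of arrays limits the precision.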

Additional observations from a re-analysis of the deposited data

Results flagged for a closer look

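Some control probe sets, which the comparison leaves out, were brighter than the highest bacterial control without target at 29.4 units. For 25S ribosomal RNA the signal was 549 units in axr1-12 and 1101 units in axr3-1. The 18 hybridisation spike probe sets had a median log2 difference of -0.63, axr1-12 minus axr3-1.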

How the results depend on the processing

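The median log2 difference of the 6 genes, -0.69, stayed between -0.69 and -0.65 on the deposited scale, without a floor, with a pseudocount of 16, with either choice of probe set, without a filter and with a filter at the 67th percentile, which left 5 genes. Quantile scaling gave -0.50 and loess scaling -0.52, and the number of genes at least 1.5-fold lower in axr1-12 was then 2 in place of 6. With the hybridisation spikes set equal the median was -0.06 and 0 genes were 1.5-fold lower. All probe sets then moved by the same factor, so 1.55% were at least 1.5-fold and 0.440% at least 2-fold lower, and 54.0% and 19.4% were that much higher. With the other plastid genes set equal, which by construction gives the difference from the rest of the plastid genome, the median was 0.33 and 0 genes were 1.5-fold lower. The genes then had 0.05 (petA), 0.38 (petB), 0.25 (petD), 0.36 (petL), 0.31 (ccsA) and 0.34 (cemA). Of 54 alternative values of single genes, 40 moved by less than 0.37, and the others were petB under quantile and loess scaling and all 6 genes under the spike and plastid scalings. No paired analysis was possible because there was 1 array per line, and for the same reason no replicate could be left out. Among the b6f genes, petG, petN and petD, with the lowest signals, are limited by signal over background.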
